A study of Mus musculus with 2 samples.

Results

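Immediate early transcription factors are the first nuclear proteins that a cell makes after a growth factor, a stress or a change of contact with its surroundings, because their genes are switched on by regulators that are already present. Fos and Jun proteins pair through leucine zippers to form AP-1, Egr factors are zinc finger proteins, Atf3 is a stress-induced relative of the AP-1 subunits, and Myc drives genes of growth and metabolism. In the thymus, stromal cells (epithelial cells, fibroblasts, vessel cells and macrophages) sit in a meshwork that is lost when they are spread on plastic. The 10 genes described here are Fos, Fosb, Fosl1, Fosl2, Jun, Junb, Egr1, Egr2, Atf3 and Myc, chosen by name. They and the lists of related genes used below were chosen with earlier results of these data known, so that their counts are descriptive. All 10 were among the 19505 genes that the array names and among the 13506 genes bright enough to be tested.

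The question was how gene expression of thymic stromal cells differs between reaggregation thymus organ culture (RTOC), in which dispersed cells are placed as a dense drop on a membrane, and 2D culture on a dish. Lobes of C57BL/6 mouse fetuses spent the first days in organ culture, where 1.35 mM deoxyguanosine was present, an agent that depletes lymphoid cells. The lobes were then dispersed, and RNA was taken after a further 72 h in RTOC or 2D culture. There were 2 independent experiments, 1 with E14.5 fetuses (8 days of organ culture) and 1 with E15.5 fetuses (9 days), each read on 1 two-colour array with RTOC in Cy5 and 2D culture in Cy3. Fetal stage, days of organ culture and array therefore cannot be told apart, no array had the dyes swapped (dye and culture cannot be told apart either), and each culture of each stage was measured once. Every comparison has n = 2 arrays, and log2 ratios are RTOC over 2D culture, so that a negative value means less RNA in RTOC. The intensities were quantile normalized over the 4 channels and have no unit. In RNA of a whole culture, fewer cells of a type and less RNA per cell cannot be told apart.

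Sequences upstream of the genes are shown because immediate early genes are known for short regulatory elements close to their start sites. RefSeq promoter entries (build GRCm38.p6) were matched for 7 of the 10 genes: Fos, Fosb, Fosl2, Jun, Junb, Egr2 and Atf3. The lines below hold the 120 bases directly before the start site, on the coding strand, and for Egr2, which has 5 entries, a stretch of 30 bases around the element of entry 3. Capitals mark matches to the motifs that were searched in the 250 bases before each start, on both strands.
Fos, chr12:85473770-85473889, plus strand: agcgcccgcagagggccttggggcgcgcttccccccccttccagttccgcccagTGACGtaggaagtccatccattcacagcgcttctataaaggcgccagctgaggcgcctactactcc
Fosb, chr7:19310046-19310165, minus strand: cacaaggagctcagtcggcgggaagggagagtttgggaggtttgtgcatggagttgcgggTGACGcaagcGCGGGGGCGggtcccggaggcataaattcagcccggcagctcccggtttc
Fosl2, chr5:32136352-32136471, plus strand: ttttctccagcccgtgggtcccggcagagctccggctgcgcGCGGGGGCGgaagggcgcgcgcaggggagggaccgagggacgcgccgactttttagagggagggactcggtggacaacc
Jun, chr4:95052223-95052342, minus strand: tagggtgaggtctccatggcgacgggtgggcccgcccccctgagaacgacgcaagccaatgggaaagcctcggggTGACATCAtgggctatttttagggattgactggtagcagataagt
Junb, chr8:84978749-84978868, minus strand: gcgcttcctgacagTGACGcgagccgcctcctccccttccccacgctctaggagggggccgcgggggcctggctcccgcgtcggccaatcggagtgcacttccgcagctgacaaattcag
Atf3, chr1:191183334-191183453, minus strand: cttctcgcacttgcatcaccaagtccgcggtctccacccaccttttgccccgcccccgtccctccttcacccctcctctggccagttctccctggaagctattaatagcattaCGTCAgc
Egr2, chr10:67537793-67537822, plus strand: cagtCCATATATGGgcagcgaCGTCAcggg

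The core of the cAMP response element, TGACG or its complement CGTCA, lay within 250 bases of the start in Fos, Fosb, Junb, Egr2 and Atf3. It is found in 17.8% of the 32851 promoter entries. In Fos it lay 66 and 129 bases before the start, in Fosb 60 bases, in Junb 106 bases and in Atf3 7 bases. The Egr site GCGNGGGCG, held by 4.7% of all entries, lay in Fosb (50 bases before the start) and Fosl2 (79 bases). A CArG box, the binding site of serum response factor, was found in Egr2, 72 bases before the start of entry 3, and in 1.47% of all entries. The same letters lay 73 and 133 bases before the starts of entries 4 and 5. Entry 2 held a CArG box of other letters (CCTTTTTTGG) and no TGACG or CGTCA, and entry 1 had no match. The share is counted per entry, whereas Egr2 has 5 entries. Jun held TGACATCA, the variant AP-1 element known from its promoter, 45 bases before its start, against 2.93% of all entries. The AP-1 site TGACTCA (4.46% of entries) and the full cAMP response element TGACGTCA (1.55%), which contains that core, had no match in these windows. These matches describe letters only; no binding was measured in this series.

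All 10 genes gave less signal in RTOC than in 2D culture on both arrays, and 8 of them were called lower by limma at an adjusted p under 0.05 over all tested probes. Those were Fos, Fosl1, Fosl2, Jun, Junb, Egr1, Egr2 and Atf3; Fosb and Myc did not pass the test, and none was called higher. Over all 13506 tested genes, 12.7% were called lower and 15.4% higher in RTOC, and 39.5% were negative on both arrays. For all 10 genes, the uncalled Fosb and Myc included, both 2D signals lay above both RTOC signals. The share of all tested genes for which this holds was not counted, so that it is a description only where it is given below. The median log2 ratio of the 10 genes was -1.23, against 0.00 for all tested genes. All 10 stood well above background in every channel, as did 89.4% of the tested genes. At least 2-fold lower in RTOC on both arrays were 5 of the 10 (Fosl1, Fosl2, Jun, Junb and Egr2), and 9.06% of all tested genes. The number called moved between 0 and 9 over the alternatives tried. It was 0 without the filter on dim probes, 2 when the raw signals were centred on their median (Junb and Egr2), and 3 when the pairing of cultures on an array was dropped.

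**Figure D1:**
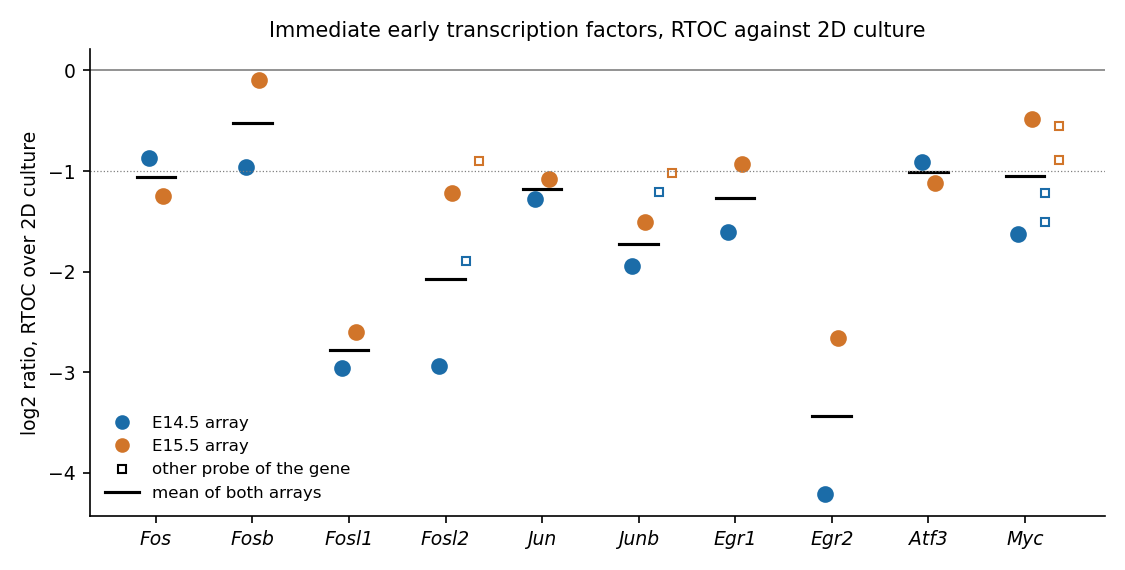
Log2 ratio of RTOC over 2D culture (vertical axis) for each of the 10 genes on the E14.5 array (blue) and the E15.5 array (orange), with the mean of both arrays as a black line, open squares for the other probes of a gene and a dotted line at a 2-fold decrease. Every point is below 0, from -4.21 for Egr2 on the E14.5 array to -0.09 for Fosb on the E15.5 array.

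Among the Fos family, which cannot pair with themselves and form AP-1 with a Jun partner, Fosl1 (Fra-1) was the most strongly reduced. Its normalized intensity was 1625 in 2D culture and 209 in RTOC at E14.5, and 323 in 2D culture and 53.2 in RTOC at E15.5. Both cultures were brighter in the E14.5 experiment, by 5.03-fold in 2D culture and 3.93-fold in RTOC, yet the lower 2D signal (323) was still above the higher RTOC signal (209). The log2 ratio was -2.96 at E14.5 and -2.60 at E15.5 (mean -2.78 ± 0.25 SD, n = 2; SE 0.26; limma adjusted p = 0.0026), a 6.88-fold lower level in RTOC. This size depended on the processing. With normexp background correction, which adds an offset to every signal, and loess normalization the mean was -1.08 (limma adjusted p = 0.0799). Background and normalization changed together there, so that their parts cannot be told apart.

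Fosl2 (Fra-2) was next. It gave 3365 in 2D culture and 440 in RTOC at E14.5, and 1474 and 632 at E15.5, so that both 2D signals were above both RTOC signals. The log2 ratio was -2.93 at E14.5 and -1.22 at E15.5, with a mean of -2.08 ± 1.21 (SD, n = 2; SE 0.44; limma adjusted p = 0.0229). The difference between the arrays was in both cultures: the 2D signal was 2.28-fold higher at E14.5, and the RTOC signal was 1.44-fold higher at E15.5. With normexp and loess the mean was -1.39 (limma adjusted p = 0.0755). A second probe was well above background only in 2D culture at E14.5 and was not tested; it read 121 there and between 24.5 and 45.8 in the other channels.

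Fos (c-Fos), the best known of the rapidly induced and rapidly decaying transcripts, gave dim signals. They were 534 in 2D culture and 293 in RTOC at E14.5, and 523 and 220 at E15.5, so that both 2D signals lay above both RTOC signals and were nearly equal to each other. Fos was 2.09-fold lower in RTOC, with log2 ratios of -0.87 and -1.25 and a mean of -1.06 ± 0.27 (SD, n = 2; SE 0.26; limma adjusted p = 0.035). Fos and Atf3 were the members with the larger decrease at E15.5. With normexp and loess the mean for Fos was -0.39 and the gene was not called (limma adjusted p = 0.113). Fosb, a close relative of Fos, gave the smallest ratio of the 10. Its signals were 181 in 2D culture and 93.0 in RTOC at E14.5, but 135 and 127 at E15.5, where the cultures were nearly level. Its mean log2 ratio of -0.53 ± 0.61 (SD, n = 2) did not pass the test (limma adjusted p = 0.249), and 25.0% of all tested genes had a mean ratio as low or lower.

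In the Jun family, which supplies the partners of Fos proteins and can also pair with itself, both members were lower in RTOC with similar values on both arrays. Junb gave the brightest signals of the set, 67737 in 2D culture and 17577 in RTOC at E14.5, and 43501 and 15342 at E15.5. Both 2D signals were far above both RTOC signals, and the RTOC signals differed by only 1.15-fold between the experiments. The log2 ratios were -1.95 and -1.50 (mean -1.72 ± 0.31 SD, n = 2; SE 0.27; limma adjusted p = 0.0091), a 3.31-fold lower level in RTOC. A second Junb probe gave -1.21 and -1.02 (limma adjusted p = 0.0273); it shares 22 of its 60 bases with the first and is no independent measurement of the transcript. The shared stretch is printed to show that overlap.
Junb, shared by both probes: ttcgtgtctaaagtctatttta

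Jun (c-Jun) gave 3407 in 2D culture and 1402 in RTOC at E14.5, and 4971 and 2352 at E15.5. Jun was the only member with a higher 2D signal at E15.5 than at E14.5, by 1.46-fold, and its RTOC signal was 1.68-fold higher there as well, so that the ratio held while the level moved. The log2 ratios of -1.28 and -1.08 gave the smallest SD of the 10 genes (mean -1.18 ± 0.14 SD, n = 2; SE 0.25; limma adjusted p = 0.0235). Jun was 2.27-fold lower in RTOC. Over the 6 AP-1 subunits, 5 were called lower, and the median log2 ratio was -1.45. Of all tested genes 12.7% were called lower, and their median was 0.00.

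**Figure D2:**
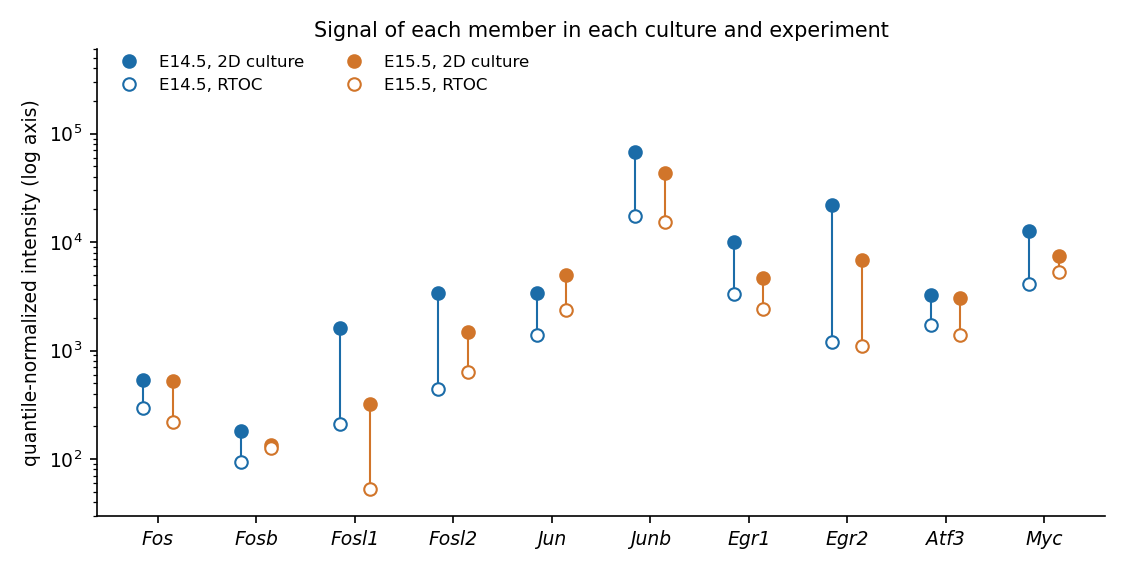
Quantile-normalized intensity (vertical log axis) of the probe used for each gene in 2D culture (filled) and RTOC (open) in the E14.5 experiment (blue) and the E15.5 experiment (orange), with a line joining the channels of an array. Filled points lie above open points on both arrays for every gene, from Junb (67737 and 17577 at E14.5) to Fosb (135 and 127 at E15.5); levels of different genes come from different probes and are not comparable.

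The Egr factors contained the largest change of the set. Egr2 (Krox20), a zinc finger factor known for hindbrain patterning, myelination and restraint of lymphocyte activation, gave 22180 in 2D culture and 1194 in RTOC at E14.5, and 6872 and 1090 at E15.5. The RTOC signals of the 2 experiments were within 1.1-fold of each other, whereas the 2D signal was 3.23-fold higher at E14.5. The log2 ratios were -4.21 and -2.66, with a mean of -3.44 ± 1.1 (SD, n = 2; SE 0.42; limma adjusted p = 0.0045), a 10.8-fold lower level in RTOC. Only 0.763% of the tested genes had a mean ratio as low or lower. Egr2 and Junb stayed called under normexp with loess and with median centring, where the mean of Egr2 was -3.03 and -2.87. With median centring they passed only narrowly (limma adjusted p = 0.0499 for Egr2 and 0.0419 for Junb). Without the filter on dim probes neither was called.

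Egr1 (Zif268), a widely used marker of acute signalling through MAP kinases, gave 10030 in 2D culture and 3291 in RTOC at E14.5, and 4632 and 2425 at E15.5. Both 2D signals lay above both RTOC signals. The log2 ratios were -1.61 and -0.93 (mean -1.27 ± 0.48 SD, n = 2; SE 0.29; limma adjusted p = 0.0275), a 2.41-fold lower level in RTOC.

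The rest of the Egr family and the Nab corepressors, which bind Egr proteins and limit their activity, did not share one direction. Egr3 was well above background only in 2D culture at E14.5, where it read 849; it read 33.6 in RTOC at E14.5, and 72.8 in 2D culture and 23.1 in RTOC at E15.5, and was not tested. Egr4 had log2 ratios of 0.59 at E14.5 and -0.60 at E15.5 (limma adjusted p = 0.991). Nab1 had 0.86 and 0.51 (limma adjusted p = 0.104), and Nab2 had -0.67 and 0.34 (limma adjusted p = 0.733). None of the 3 tested genes was called.

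Atf3, a bZIP factor induced by amino acid shortage, damage and wounding, gave 3219 in 2D culture and 1718 in RTOC at E14.5, and 3030 and 1394 at E15.5. Both 2D signals lay above both RTOC signals, and neither culture changed by more than 1.23-fold between the experiments. The log2 ratios were -0.91 and -1.12 (mean -1.01 ± 0.15 SD, n = 2; SE 0.25; limma adjusted p = 0.036), a 2.02-fold lower level in RTOC. With median centring of normexp-corrected signals the mean was -0.64 (limma adjusted p = 0.0711).

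Myc, whose protein pairs with Max and whose mRNA is also short-lived, gave 12645 in 2D culture and 4111 in RTOC at E14.5, and 7443 and 5325 at E15.5. Both 2D signals were above both RTOC signals, by 3.08-fold within the E14.5 experiment and 1.40-fold within the E15.5 experiment. The log2 ratios of -1.62 and -0.48 gave a mean of -1.05 ± 0.80 (SD, n = 2; SE 0.35), which did not pass the test (limma adjusted p = 0.0737). Its other probes read -1.51 and -0.55 (limma adjusted p = 0.0647), and -1.22 and -0.89 (limma adjusted p = 0.0344), so that the dimmest of the 3 passed on its own. The 3 probes share no stretch longer than 6 bases. With an intensity trend and robust fitting, the first probe had a limma adjusted p of 0.0449.

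**Figure D3:**
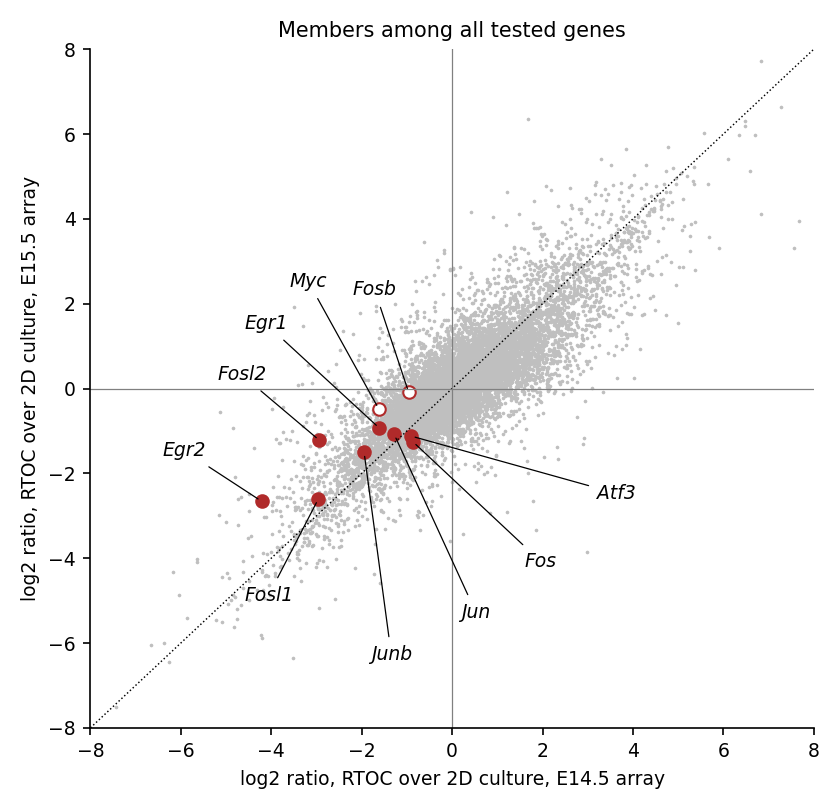
Log2 ratio of RTOC over 2D culture on the E14.5 array (horizontal axis) and on the E15.5 array (vertical axis) for all 13506 tested genes (grey), with the 10 genes in red, filled where limma called them, and a dotted line of equal ratios. All 10 lie in the lower left quadrant, and 8 of them lie above the dotted line, where the decrease was larger at E14.5.

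In order of the mean log2 ratio, the genes ran from Egr2 (-3.44) through Fosl1 (-2.78), Fosl2 (-2.08), Junb (-1.72), Egr1 (-1.27), Jun (-1.18), Fos (-1.06), Myc (-1.05) and Atf3 (-1.01) to Fosb (-0.53). From Egr1 to Atf3, neighbours in this order were apart by less than the SD between the arrays of either gene, so that their order is not resolved. The decrease was larger at E14.5 for 8 of the 10 genes, against 61.8% of the 5338 tested genes that were negative on both arrays and 58.1% of the genes called lower. The median absolute difference between the arrays was 0.56 on the log2 scale for the 10 genes and 0.39 for all tested genes. It was largest for Fosl2 (1.71), Egr2 (1.56) and Myc (1.14). In Fosl2, Egr2 and Myc the 2D signal was higher at E14.5, while the RTOC signal was within 1.44-fold between the experiments. With 1 array per stage, these differences between stages could not be tested.

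Repeated spots give the spread of the reading within an array. The probes of Fos, Jun, Egr2 and Myc are each printed at 10 positions. For Egr2 the 10 spot ratios ran from -4.31 to -4.02 at E14.5 and from -2.76 to -2.52 at E15.5, with SDs of 0.09 and 0.08. For Myc they ran from -1.67 to -1.56 and from -0.54 to -0.42. The ranges of the arrays did not overlap for Egr2, Myc or Jun, whose spots ran from -1.35 to -1.20 and from -1.14 to -0.995. They overlapped for the dim Fos probe, from -1.11 to -0.65 at E14.5 and from -1.60 to -0.98 at E15.5, with SDs of 0.14 and 0.17. Over 175 tested probes printed at least 5 times, the median SD between spots was 0.07 on each array. The share of those probes with ranges apart was not counted. Over all tested genes the median absolute difference between the arrays was 0.39, so that ranges apart are not read as a trait of these genes. Spots of 1 array share an RNA sample and a labelling and are not replicates of the culture.

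**Figure D4:**
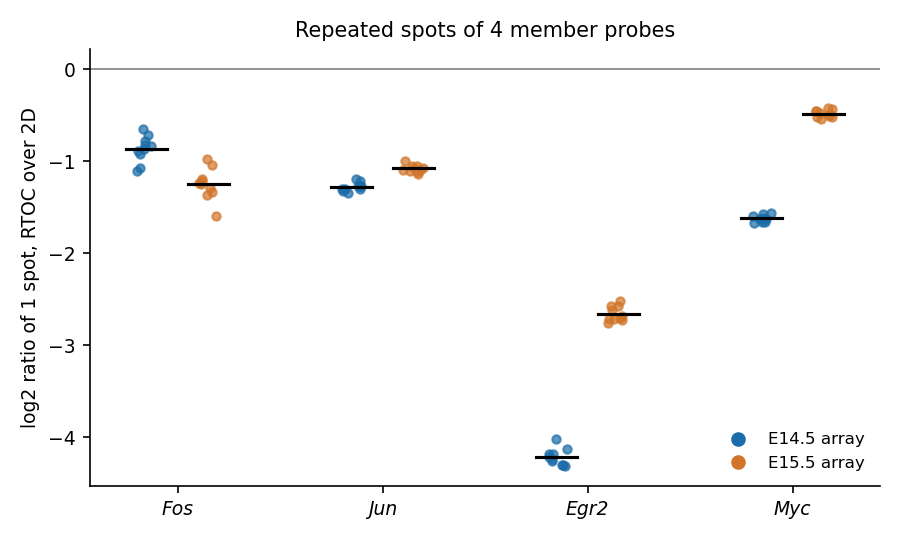
Log2 ratios (RTOC over 2D) of single spots (vertical axis) for the probes of Fos, Jun, Egr2 and Myc, 10 spots on the E14.5 array (blue) and 10 on the E15.5 array (orange), with the mean of each set as a black line. The spots of an array lie close together for Jun, Egr2 and Myc, and those of Fos are the most scattered, from -1.60 to -0.65 over both arrays.

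Cell type markers moved with culture in the same RNA, beside all of the decreases above. Of 4 tested smooth muscle markers 3 were lower in RTOC, and their summed intensity was 489198 to 562009 in 2D culture and 37254.5 to 60918 in RTOC; Des was not well above background in any channel. Of 6 endothelial markers 5 were higher in RTOC (sum 572 to 1485 in 2D culture and 6448 to 9987 in RTOC), with Pecam1, Cdh5, Tek and Tie1 not well above background in 2D culture. Those genes entered the test through the culture in which they were high. Of the 2 endothelial markers well above background in every channel, Emcn was called higher and Kdr was not called. Of 6 tested haematopoietic markers 3 were higher (54758 to 66067 against 164152 to 212599), while Cd8a was not well above background in any channel and Cd4 and Rag1 were not in 2D culture. Epithelial markers were all well above background in every channel, with 5 of 10 higher and 2 lower (311895 to 640107 against 984605 to 985404). Of 8 fibroblast markers 4 were lower and 3 higher (330766 to 431114 against 272544 to 291534), and of 6 cycling cell markers 1 was higher (23634 to 36527.5 against 40455 to 46809). Each sum adds intensities of different probes, so that the brightest weigh most and it is no amount of a cell type. The fibroblast sums fell with Col1a1, Col1a2, Pdgfrb and Thy1 lower, while Pdgfra, Dcn and Lum were higher. For comparison, 12.7% of all tested genes were called lower and 15.4% higher. The part of these marker shifts in the values of the 10 genes was not tested.

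The dimer partners and bZIP relatives of AP-1 showed no common direction. Of 16 tested genes 3 were called lower and 2 higher, with a median log2 ratio of -0.03. The shares of all tested genes were 12.7% lower and 15.4% higher. Maff and Mafk, small Maf proteins that lack an activation domain, were lower, at -2.37 and -1.94 (limma adjusted p = 0.0052 and 0.0135). Jund, the remaining Jun protein, singled out after its values were seen, was 3.02-fold lower in RTOC with log2 ratios of -1.72 and -1.47 (limma adjusted p = 0.0101).

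Many of the other immediate early genes were lower in RTOC too. Of 28 tested, 16 were lower in RTOC and 1 was higher, with a median of -1.35. Of all tested genes 12.7% were called lower and 15.4% higher. Negative on both arrays were 22, against 39.5% of all tested genes. The decrease was larger at E14.5 in 18 of those 22, against 61.8% of all tested genes negative on both arrays. The lowest were Ccn2 (CTGF) at -5.10 ± 0.48, Ccn1 (CYR61) at -3.92 ± 0.10 and Ier3 at -3.61 ± 0.19 (SD, n = 2 each; limma adjusted p = 0.0016, 0.0016 and 0.0017). Ccn1 and Ccn2 encode secreted matricellular proteins. Upstream, the serum response factor group with its partners and the MAP kinases gave 2 lower and 1 higher of 19, with a median of -0.15, which is no larger a share of lower calls than the 12.7% over all tested genes. Elk3, a ternary complex factor that acts with serum response factor, was lower at -2.12, and Mrtfa, the actin-regulated coactivator of the same factor, was lower at -1.39 (limma adjusted p = 0.0044 and 0.0207). Creb1 was higher at 1.12 on its brightest probe (limma adjusted p = 0.0298), but its other tested probes read from -1.11 to -0.58.

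Feedback regulators, which are phosphatases that inactivate MAP kinases, Sprouty and Spred inhibitors of the pathway, and proteins that destabilise short-lived mRNAs, split. Of 16 tested genes 4 were lower and 2 higher, with a median of -0.55. Among all tested genes 12.7% were called lower and 15.4% higher, so that the share of higher calls was no larger than that of all genes. Dusp4 was lower at -2.17 and Dusp8 at -1.42 (limma adjusted p = 0.005 and 0.0136), and Zfp36l1, which binds AU-rich elements, was higher at 1.48 (limma adjusted p = 0.0126).

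Genes known as AP-1 targets were lower in RTOC in 13 of 19 tested, with none higher and a median of -2.02. For all tested genes the share called lower was 12.7% and the median was 0.00. Il6 and Mmp10 among the 13 were well above background only in 2D culture, so that they entered the test through the culture in which they were high. Of the 15 genes well above background in every channel 10 were lower, with a median of -1.82. Ptgs2, the inducible prostaglandin synthase, was at -6.19 ± 0.27, the growth factor Hbegf at -3.74 ± 0.03 and the metalloproteinase inhibitor Timp1 at -3.53 ± 0.10 (SD, n = 2 each; limma adjusted p = 0.0016, 0.0016 and 0.0017). In 2D culture Hbegf gave 10212 and 6671, and in RTOC 756 and 508. Ptgs2 gave 15293 at E14.5 and 3535 at E15.5 in 2D culture, but 184 and 55.2 in RTOC. Those dim RTOC signals limit the size of its ratio. The list holds genes that answer to many factors, and no binding by AP-1 was measured.

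The Myc network of Max, Mxd and Mlx proteins gave 2 higher and none lower of 13 tested (median 0.37), with Mlxipl (ChREBP) at 1.73 (limma adjusted p = 0.0075). That count of higher calls is near the 15.4% of all tested genes. Of 20 genes known as Myc targets 3 were lower and none higher, with a median of -0.71; this count is near the 12.7% of all tested genes that were called lower. The 3 were Odc1, the first enzyme of polyamine synthesis (-2.53 ± 1.92 SD, n = 2; limma adjusted p = 0.0352), the cyclin Ccnd2 (-2.10 ± 0.03; limma adjusted p = 0.0043) and Ldha, a lactate dehydrogenase subunit (-1.47 ± 0.57; limma adjusted p = 0.021). The log2 ratio of Odc1 was -3.89 at E14.5 and -1.18 at E15.5, with the larger decrease at E14.5.

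The genes that act with Atf3 in the ATF4 and stress responses were lower in 9 of 17 tested and higher in none, with a median of -1.06. Among all tested genes 12.7% were called lower. Slc7a11, the cystine transporter, was at -3.43 ± 1.92, Ppp1r15a (GADD34), which reverses the translational block of stressed cells, at -2.14 ± 0.35, and the glutathione-degrading enzyme Chac1 at -1.97 ± 0.43 (SD, n = 2 each; limma adjusted p = 0.0154, 0.0052 and 0.0073). In this list 15 of 17 genes had the lower ratio at E14.5, against 51.5% of all tested genes, and Atf3 did not.

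**Figure D5:**
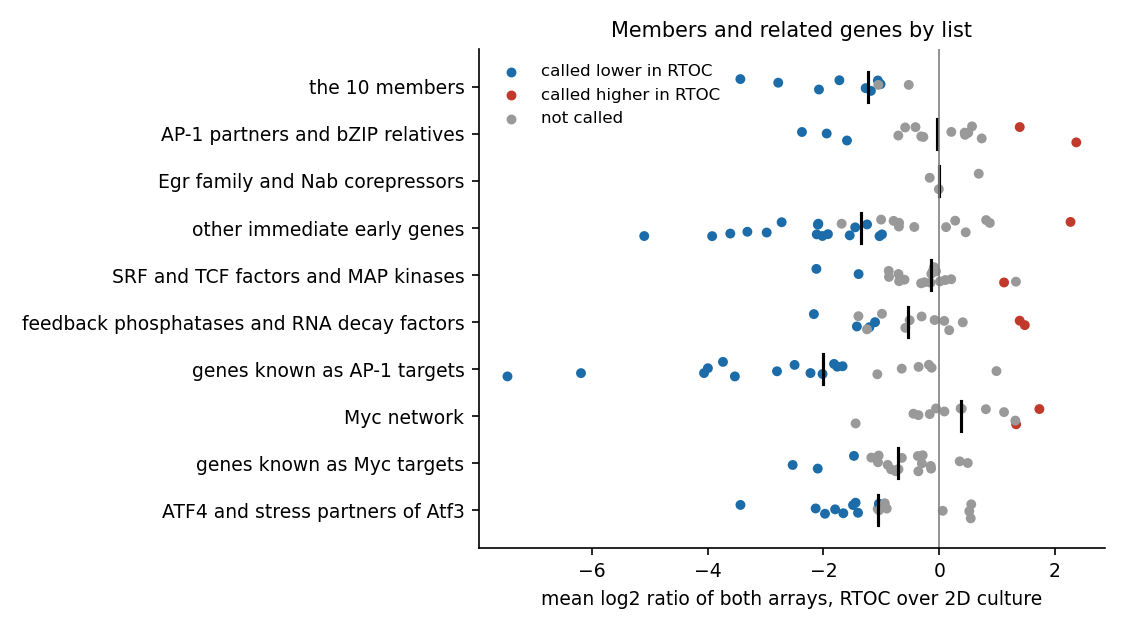
Mean log2 ratio of both arrays (horizontal axis) of each tested gene in the 10 genes and in 9 lists of related genes (rows), coloured by whether limma called it lower (blue), higher (red) or not at all (grey), with the median of each list as a black line; vertical scatter within a row has no meaning. The medians are lowest for genes known as AP-1 targets (-2.02), other immediate early genes (-1.35) and the 10 genes (-1.23), and highest for the Myc network (0.37).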

How the data were processed

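Each two-colour array held RTOC RNA (Cy5) and 2D culture RNA (Cy3). The deposited scanner files give each spot's mean, background and processed signal as intensity; the authors' Feature Extraction step (version 9.1.3.1 per the file headers, 11.5.1.1 per the labels) subtracted background and normalized the dyes. The deposited series table, a log10 ratio of the same processed signals, was only checked against them. Following the study's methods, quantile normalization was applied to the processed signals of all 4 channels, without controls and outlier spots (5 at E14.5, 1 at E15.5). Spots were averaged per probe, and probes entered the test if on every array at least 1 of its channels stood well above background (23685 of 41174 probes). In the 4 channels, 53.1% to 60.9% of probes were well above background; the number of arrays limits the precision. Log2 ratios were tested with limma 3.58.1 in R 4.3.3 (lmFit with an intercept, eBayes, two-sided), with Benjamini-Hochberg adjustment over all tested probes and a threshold of 0.05. Only 1 residual degree of freedom remained, so the test leans on the spread pooled over probes. A gene was read from its brightest tested probe. Probes were named through RefSeq accessions (22951), symbols (6659) or older symbols (3109); 8455 kept the name in the files. The arrays lie on 1 slide. Background correction, normalization, filter, block, test and probe choice were varied.

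The 10 genes and the lists were chosen with earlier results of these data known. Named from each list were the 3 genes of largest mean ratio among those called and well above background in all 4 channels, and every Egr and Nab gene. A gene that this rule names is not reported here. Promoter motifs were searched with Python 3.11.15.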

Additional observations from a re-analysis of the deposited data

Results flagged for a closer look

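Egr4 and Nab2 moved in opposite directions on the arrays. The log2 ratio of Egr4 was 0.59 at E14.5 and -0.60 at E15.5, a difference of 1.19, and that of Nab2 was -0.67 and 0.34, a difference of -1.02. With 1 array per stage, the difference between stages was not tested.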

How the results depend on the processing

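Every member kept a negative mean ratio under all alternatives run. On both arrays all 10 stayed negative except with normexp and median centring, where Fosb was -0.16 at E14.5 and 0.08 at E15.5, the median of all genes shifted to 0.14 and genes called lower made up 24.2% of calls, against 45.2%. From 6820 probes and 8 members called, the counts fell to 3738 probes and 5 members with normexp and loess (the same with Aquantile added), 2948 and 2 with median centring, and 4033 and 3 with no replicate block, where the channels were taken as separate samples. With no filter on dim probes limma called 0 probes and 0 members (10666 and 7 at an unadjusted p under 0.05). The study's methods name a t-test for statistical comparison in general and no test for the arrays. A t-test on the log2 ratios of both arrays called 0 and 0 after adjustment and 3539 and 1 before it. With 1 degree of freedom and no spread pooled over probes, this t-test has little power after adjustment. A 2-fold change on both arrays was met by 4780 probes and 5 members. Limma with trend and robust fitting called 9 members, Myc added. The other alternatives called 8. Of 110 single-gene alternatives with a test 76 gave the same result, 33 lost the call and 1 gained it. The 76 include those in which Fosb and Myc stayed uncalled, and all 33 losses fell on the 8 genes called. Aquantile left the ratios of the loess setting as they were, so that it is no separate check. Leaving out an array leaves no residual degree of freedom, so that no count can be had; the ratios without an array are those of the other array. The causes were not tested. The offset in normexp shrinks ratios of dim probes by its construction, but it was not varied. The normexp settings also differed from the main one in the input signals and the normalization, so that the part of the offset was not measured. The dim signals of Fosb, Fos and, in RTOC, Fosl1 limit their ratios.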
